A study of Mus musculus with 2 samples.

Results

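The small leucine-rich proteoglycan genes and Mgp were examined as 10 listed genes of the 55450 in the count tables: Mgp, Omd, Ogn, Dcn, Lum, Bgn, Fmod, Aspn, Prelp and Dpt. All 10 were matched by symbol. The list was chosen by measured values of these same 2 libraries. These were the UMI sums and co-detection of these genes in tumor cells and fibroblasts, and both libraries at equal depth. Their levels and contrasts are therefore given below as descriptions with no test. EMT6 is a mouse triple-negative breast cancer cell line, and 200000 EMT6 cells had been injected subcutaneously into young female BALB/c mice, which are immunocompetent hosts of the same strain. The group named Olaparib + LLY-283 received the PRMT5 inhibitor LLY-283 at 50 mg/kg, 3 days on and 4 days off, and the PARP inhibitor Olaparib at 50 mg/kg daily. The Combo group received the same 2 drugs at the same doses and, in addition, 200 µg of anti-PD-1 every 3 days. Each group was 1 single-cell library of dissociated tumors from 3 mice pooled, so group, pool of mice and library cannot be told apart, and no untreated library was analysed here. The intervals given below cover counting error only.

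Small leucine-rich proteoglycans are secreted proteins whose leucine-rich core binds collagen fibrils and several growth factors, and most carry chondroitin, dermatan or keratan sulfate chains. Decorin (Dcn), biglycan (Bgn) and asporin (Aspn) form class I of the family. Lumican (Lum), fibromodulin (Fmod), Prelp and osteomodulin (Omd) form class II, and osteoglycin (Ogn, also called mimecan) belongs to class III. Matrix Gla protein (Mgp) is no proteoglycan. It is a small vitamin K-dependent protein that restrains calcification and binds bone morphogenetic proteins. Dermatopontin (Dpt) is a small matrix protein that binds decorin and collagen. Fibroblasts of connective tissue are the usual source of decorin, lumican and dermatopontin, while osteomodulin is best known from osteoblasts.

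In the GENCODE M21 annotation of build GRCm38, 3 of the genes lie side by side on chromosome 13 and on the same strand: Aspn at 49544443-49567565, Omd at 49582462-49592822 and Ogn at 49608046-49624501. The gaps between them are 14.9 kb (Aspn to Omd) and 15.2 kb (Omd to Ogn), with no other protein-coding gene between neighbours. Dcn (97479609-97518143) and Lum (97565128-97572703) are neighbours on chromosome 10, 47.0 kb apart. Prelp (133910304-133921414) and Fmod (134037254-134048277) lie 116 kb apart on chromosome 1 in opposite orientations, and Dpt is at 164796644-164824266 of the same chromosome. Bgn is on chromosome X at 73483602-73495933 and Mgp on chromosome 6 at 136872435-136875823. Per captured UMI, Aspn was far higher in fibroblasts than in tumor cells and its neighbours Omd and Ogn were not, as described below, and the 250 bases before the start sites of these 3 genes are shown for that reason. They are from RefSeq (GRCm38.p6, plus strand, chr13:49544193-49544442 for Aspn, chr13:49582212-49582461 for Omd and chr13:49607765-49608014 for Ogn), 5′ to 3′. Capitals mark matches, on either strand, to TATAAA (the TATA box), CCAAT (the CCAAT box), GGGCGG (the GC box), TGACTCA (the AP-1 motif) or TGTGGT (the core of the RUNX motif).
Aspn: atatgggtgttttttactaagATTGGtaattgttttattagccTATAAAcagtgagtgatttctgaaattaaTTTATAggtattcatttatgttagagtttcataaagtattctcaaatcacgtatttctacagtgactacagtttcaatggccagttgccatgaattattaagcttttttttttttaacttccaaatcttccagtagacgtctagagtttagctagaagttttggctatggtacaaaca
Omd: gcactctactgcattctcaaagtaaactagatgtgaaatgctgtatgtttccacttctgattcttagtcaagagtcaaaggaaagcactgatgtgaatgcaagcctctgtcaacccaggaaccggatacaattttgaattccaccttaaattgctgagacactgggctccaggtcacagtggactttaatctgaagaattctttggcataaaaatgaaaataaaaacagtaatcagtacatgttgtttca
Ogn: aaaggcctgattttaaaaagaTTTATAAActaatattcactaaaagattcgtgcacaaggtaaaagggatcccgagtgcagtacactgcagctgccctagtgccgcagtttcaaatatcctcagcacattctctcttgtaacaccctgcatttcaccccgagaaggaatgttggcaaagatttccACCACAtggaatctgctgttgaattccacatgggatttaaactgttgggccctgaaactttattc
Of the 10 genes, 7 had an entry in the promoter table. TATAAA was in 12.4% of all 32851 windows of that length, CCAAT in 33.8%, GGGCGG in 32.7%, TGACTCA in 4.46% and TGTGGT in 14.0%. The Omd window held none of the 5 motifs. The Ogn window held TATAAA on both strands at overlapping positions, starting 229 and 227 bases before the start site, and TGTGGT on the reverse strand at 65 bases before it. The Aspn window held TATAAA on each strand and CCAAT on the reverse strand. GC content was 30.0% for Aspn, 38.4% for Omd and 42.0% for Ogn, against a median of 52.4% over all windows. These matches are descriptions of letters and not of bound sites.

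The libraries held 16115 cells and 147214934 UMIs (Olaparib + LLY-283) and 7542 cells and 162522700 UMIs (Combo), where a UMI (unique molecular identifier) marks 1 captured transcript. After filters on mitochondrial UMIs, genes and doublet scores, 13974 and 5672 cells were kept. Of the barcodes, 39 occurred in both libraries. Cells were placed in classes by marker UMIs that include none of the 10 genes. Cells with keratin UMIs (Krt8, Krt18, Epcam) and few UMIs of other classes were called tumor-like, 9460 and 2722 cells with median depths of 9383 and 47183 UMIs. Among their markers Krt8 was at 852 and 806 CPM (UMIs per 1000000 UMIs of the class) and Epcam at 3.67 and 3.14 CPM. Cells with Col5a2, Thy1, Fgf7 or Fap and with Col3a1 were called fibroblast-like, 173 and 51 cells with median depths of 4160 and 21700 UMIs. In fibroblast-like cells the pericyte marker Rgs5 and the endothelial markers Pecam1 and Cdh5 had 0 UMIs in both libraries. Ptprc, the pan-leukocyte marker, had 0 and 6 UMIs. Flt1, Egfl7 and Kdr, the other endothelial markers used, are not given here. Keratin UMIs (Krt8, Krt18, Epcam) were at 130 and 95.7 CPM in fibroblast-like cells, against 963 and 889 CPM in tumor-like cells. The part of tumor RNA in fibroblast-like cells was not tested. As whole lists, Rgs5, Cspg4, Notch3 and Higd1b were at 4.78 and 9.65 CPM there, against 1.09 and 0.698 CPM in tumor-like cells. The leukocyte list of Ptprc, Tyrobp and Fcer1g was at 25.1 and 49.9 CPM in fibroblast-like cells, against 27.4 and 40.9 CPM in tumor-like cells. Limits on the leukocyte and endothelial lists were among the rules of both classes, and a keratin limit among those of the fibroblast-like class. Low values of these markers were thus set in part by the rules and are no check of purity. Macrophage-like cells (750 and 618), which are not known to make these proteins in quantity, served to read the background. Neutrophil-like cells (381 and 848, with median depths of 673 and 2120 UMIs) are set beside them for some genes. No class was assigned to 3138 and 1348 cells, of which 2312 and 611 belonged to tumor-like clusters.

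The genes fell into 2 patterns by cell class. Dcn, Bgn, Dpt, Lum, Prelp and Aspn were 27.7-fold to 1082-fold higher in fibroblast-like cells than in tumor-like cells, whereas Ogn was found at similar levels in both classes and Mgp and Omd at higher levels in tumor-like cells. Over the 2 libraries, 6 of the 9 genes with at least 50 UMIs were at least 4-fold higher in fibroblast-like cells in both libraries, against 6.48% of the 15250 genes tested (988 genes). None of the 9 was at least 4-fold higher in tumor-like cells in both libraries, against 1.25% of all genes. Since this contrast chose the list, nothing is read from these counts. The protocol counts 1 UMI per transcript from its 3′ end, so levels of different genes are set side by side without dividing by length.

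**Figure D1:**
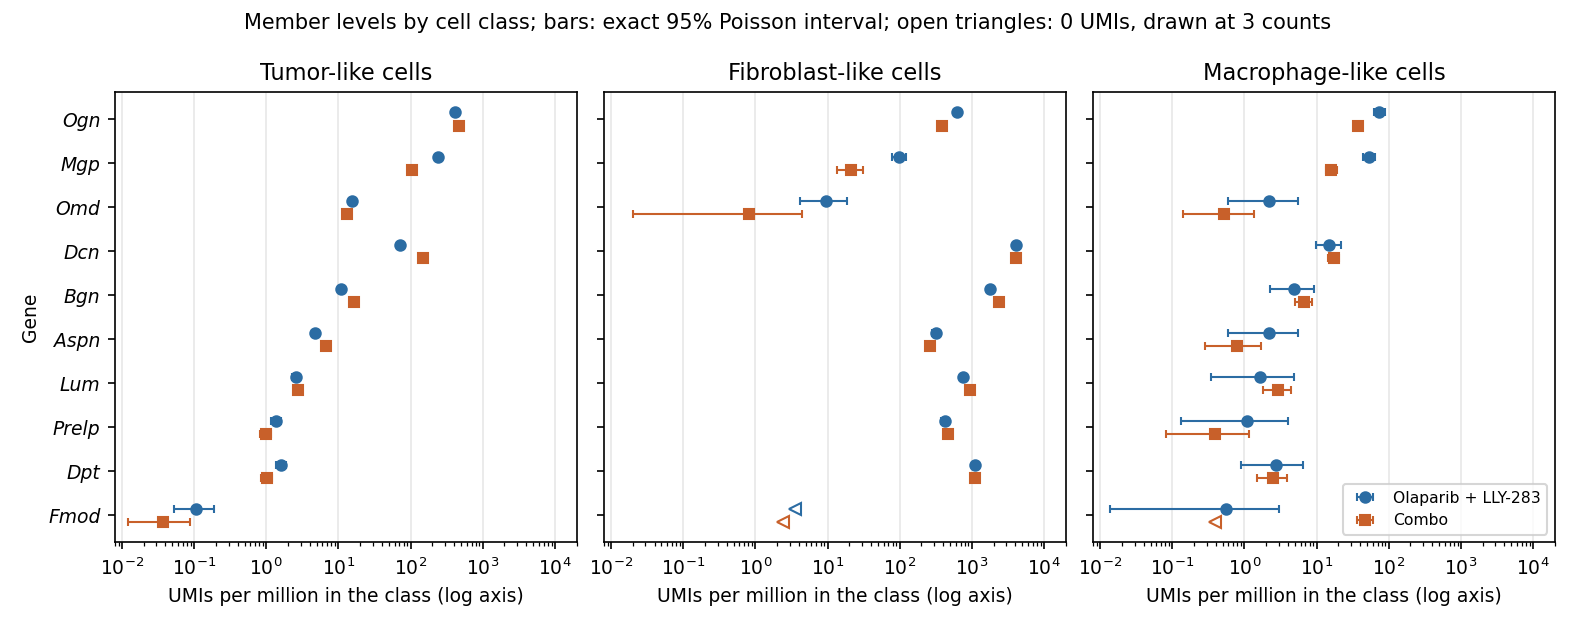
Level of each gene in CPM, on a log axis, in tumor-like, fibroblast-like and macrophage-like cells, with circles for Olaparib + LLY-283 and squares for Combo, with exact 95% Poisson intervals. Ogn leads in tumor-like cells (417 and 472 CPM), followed by Mgp in Olaparib + LLY-283 and by Dcn in Combo. Dcn leads in fibroblast-like cells (4069 and 4064 CPM), while Fmod had 0 UMIs in fibroblast-like cells, drawn as an open triangle at 3 counts.

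Osteoglycin was the most abundant of the 10 genes in tumor-like cells. Ogn was at 417 CPM [413 to 421] in Olaparib + LLY-283 and 472 CPM [468 to 476] in Combo, from 43781 and 62902 UMIs. In fibroblast-like cells it was at 620 CPM [567 to 675] and 382 CPM [349 to 418]. Its fibroblast-like level was therefore 1.49-fold the tumor-like level in Olaparib + LLY-283 and 0.810-fold in Combo, so the order of the classes turned between libraries. Macrophage-like cells held 74.4 and 37.7 CPM.

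Mgp ranked second among these genes in tumor-like cells under Olaparib + LLY-283, and came after Ogn and Dcn under Combo. It was at 239 CPM [236 to 242] in Olaparib + LLY-283 and 106 CPM [104 to 108] in Combo, from 25141 and 14154 UMIs. Fibroblast-like cells held less of it, 97.9 CPM [77.9 to 122] and 20.9 CPM [13.7 to 30.6]. Tumor-like cells thus stood 2.43-fold and 4.98-fold above them. The Combo value of fibroblast-like cells was close to that of macrophage-like cells, which held 53.6 and 16.1 CPM, and is read as background. The fibroblast-like value of Olaparib + LLY-283 was above the macrophage-like one. Neutrophil-like cells gave counting intervals of 70.1 to 147 CPM and 14.7 to 28.3 CPM, which take in the fibroblast-like levels. In Olaparib + LLY-283 the macrophage-like interval, 43.5 to 65.3 CPM, lay below the fibroblast-like one. The neutrophil-like level there came from 31 UMIs. Median depths in that library were 673 UMIs (neutrophil-like), 2129.5 (macrophage-like) and 4160 (fibroblast-like), so depth was not matched. Fibroblast-like Mgp was therefore not clear of both backgrounds in either library.

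Omd, a keratan sulfate proteoglycan of bone matrix, was found at a lower level. Tumor-like cells held 15.3 CPM [14.6 to 16.1] and 13.0 CPM [12.4 to 13.6], from 1611 and 1726 UMIs. Fibroblast-like cells held 8 UMIs in Olaparib + LLY-283, which is 9.55 CPM [4.12 to 18.8], and 1 UMI in Combo, which is 0.804 CPM [0.0204 to 4.48]. Macrophage-like cells were at 2.19 and 0.522 CPM. The tumor-like level of Omd was above the macrophage-like level in both libraries, and the intervals of tumor-like and fibroblast-like cells overlapped in the Olaparib + LLY-283 library.

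Most UMIs of Mgp, Omd and Ogn were in tumor-like cells, the most numerous class. These cells held 83.8% and 89.1% of all Mgp UMIs in kept cells, 80.9% and 92.3% of the Omd UMIs and 84.0% and 93.7% of the Ogn UMIs. With kept cells classed by their clusters in place of their own marker UMIs, the tumor-like share of Mgp was 98.0% and 97.6%. Even of Dcn, whose level in CPM was far higher in fibroblast-like cells, tumor-like cells held 55.0% and 73.0% of the UMIs. By contrast, fibroblast-like cells held 68.7% and 84.1% of the Dpt UMIs and 58.4% and 76.6% of the Prelp UMIs.

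Decorin, which binds collagen and transforming growth factor beta, was the leading gene of fibroblast-like cells, at 4069 CPM [3933 to 4208] and 4064 CPM [3953 to 4178]. It was also found in tumor-like cells, at 70.9 CPM [69.3 to 72.5] and 147 CPM [145 to 149]. The class difference was 57.4-fold in Olaparib + LLY-283 and 27.7-fold in Combo. Macrophage-like cells held 14.8 and 17.2 CPM, below the tumor-like level in both libraries. Neutrophil-like cells held 36.6 CPM [18.3 to 65.5] and 38.7 CPM [30.4 to 48.7], also below it. Biglycan, the closest relative of decorin, followed in fibroblast-like cells at 1805 CPM [1715 to 1899] and 2346 CPM [2262 to 2433]. Tumor-like cells held 10.7 CPM [10.1 to 11.4] and 16.3 CPM [15.6 to 17.0] of Bgn, against 4.92 and 6.66 CPM in macrophage-like cells. Neutrophil-like cells held 3.33 CPM [0.0843 to 18.6], from 1 UMI, and 15.4 CPM [10.3 to 22.1], intervals that take in the tumor-like levels of Bgn. Their median depths were 673 and 2120 UMIs, so depth was not matched to that of tumor-like cells. Aspn, the third member of class I, was at 321 CPM [284 to 362] and 260 CPM [232 to 290] in fibroblast-like cells. Tumor-like cells held 4.78 CPM [4.37 to 5.22] and 6.63 CPM [6.20 to 7.08] of Aspn. Macrophage-like cells held 2.19 CPM [0.596 to 5.60] and 0.783 CPM [0.287 to 1.71]. The summed tumor-like level of Aspn was thus not clear of the background in Olaparib + LLY-283. Across the 11 tumor-like clusters described below, Aspn ran from 1.12 to 20.97 CPM in that library. Those clusters also held cells without a class. Whether background alone gives this spread was not tested.

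The fibroblast-like levels of the remaining genes were close in both libraries. Dpt was at 1106 CPM [1036 to 1179] and 1108 CPM [1050 to 1168]. Lum, a regulator of fibril spacing, was at 761 CPM [703 to 822] and 934 CPM [881 to 989]. Prelp, which links matrix to basement membranes, was at 421 CPM [379 to 468] and 462 CPM [425 to 501]. In tumor-like cells these 3 genes were between 0.983 and 2.72 CPM, against 0.392 to 2.87 CPM in macrophage-like cells. Their summed tumor-like levels were thus not clear of the background. Lum was spread unevenly in Combo, with 22 UMIs in the highest tumor-like cell and 0.208 to 7.93 CPM across the 11 tumor-like clusters described below. Prelp over Dpt in Combo was 0.963 [0.752 to 1.23] in tumor-like cells, against 0.158 [0.0299 to 0.536] in macrophage-like cells. Neutrophil-like cells of Combo gave 0.667 [0.138 to 2.81], which takes in the tumor-like ratio. In Olaparib + LLY-283 the macrophage-like ratio, 0.400 [0.0381 to 2.44], also took in the tumor-like one of 0.853. Whether background alone gives these Lum and Prelp values was not tested. Fmod had 0 UMIs in fibroblast-like cells, which allows up to 3.58 and 2.41 CPM (3 counts), and 11 and 5 UMIs in tumor-like cells. No fold is given for it.

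Ratios between genes within a library differed between the classes. In fibroblast-like cells there were 3.68 [3.42 to 3.96] and 3.67 [3.46 to 3.90] Dcn UMIs per Dpt UMI, and in tumor-like cells 43.8 [37.6 to 51.3] and 144 [121 to 171]. The ratio in macrophage-like cells was 5.40 [2.05 to 18.0] and 6.95 [4.28 to 11.9]. Dcn over Lum gave the same order, 5.35 and 4.35 in fibroblast-like cells against 27.5 and 54.0 in tumor-like cells. For Bgn over Dpt the ratios were 1.63 and 2.12 in fibroblast-like cells against 6.62 and 16.0 in tumor-like cells. Prelp over Dpt was 0.381 and 0.417 in fibroblast-like cells and 0.853 and 0.963 in tumor-like cells. In macrophage-like cells Ogn over Mgp was 1.39 [1.06 to 1.82] and 2.35 [1.90 to 2.93], against 1.74 and 4.44 in tumor-like cells and 6.33 and 18.3 in fibroblast-like cells. The part of RNA from other cells in these ratios was not tested.

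Levels were then compared between the libraries, which is the comparison of adding anti-PD-1 to Olaparib + LLY-283 that the design holds. In tumor-like cells Mgp was 2.25-fold lower in Combo, at a log2 ratio of -1.17 [-1.20 to -1.14], and only 0.366% of the 15037 genes tested had a lower ratio. The Mgp level of macrophage-like cells, read as background, was also lower in Combo (53.6 and 16.1 CPM), and its part in the tumor-like difference was not tested. Dcn was 2.07-fold higher, at 1.05 [1.01 to 1.09], above 98.6% of genes. Bgn, whose levels lay within the counting intervals of neutrophil-like cells, was 1.52-fold higher, at 0.60 [0.50 to 0.71]. Dpt, at background level, was 1.58-fold lower, at -0.664 [-1.001 to -0.332]. So 2 of the 9 genes with enough UMIs were higher by 1.5-fold or more and 2 were lower, against 6.05% and 3.15% of all genes. The other 5 stayed within 1.5-fold. Ogn was at 0.18 [0.16 to 0.20], Omd at -0.24 [-0.34 to -0.15], Aspn at 0.47 [0.31 to 0.63], Lum at 0.07 [-0.16 to 0.31] and Prelp at -0.49 [-0.84 to -0.14]. The median of all genes was 0.06, and the median of the 9 genes was 0.07. With ratios centred on that median gene Bgn fell inside 1.5-fold. Values of both libraries at equal depth had helped to choose the list. Nothing is therefore read from the counts or ranks of these genes between libraries, here or in fibroblast-like cells.

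**Figure D2:**
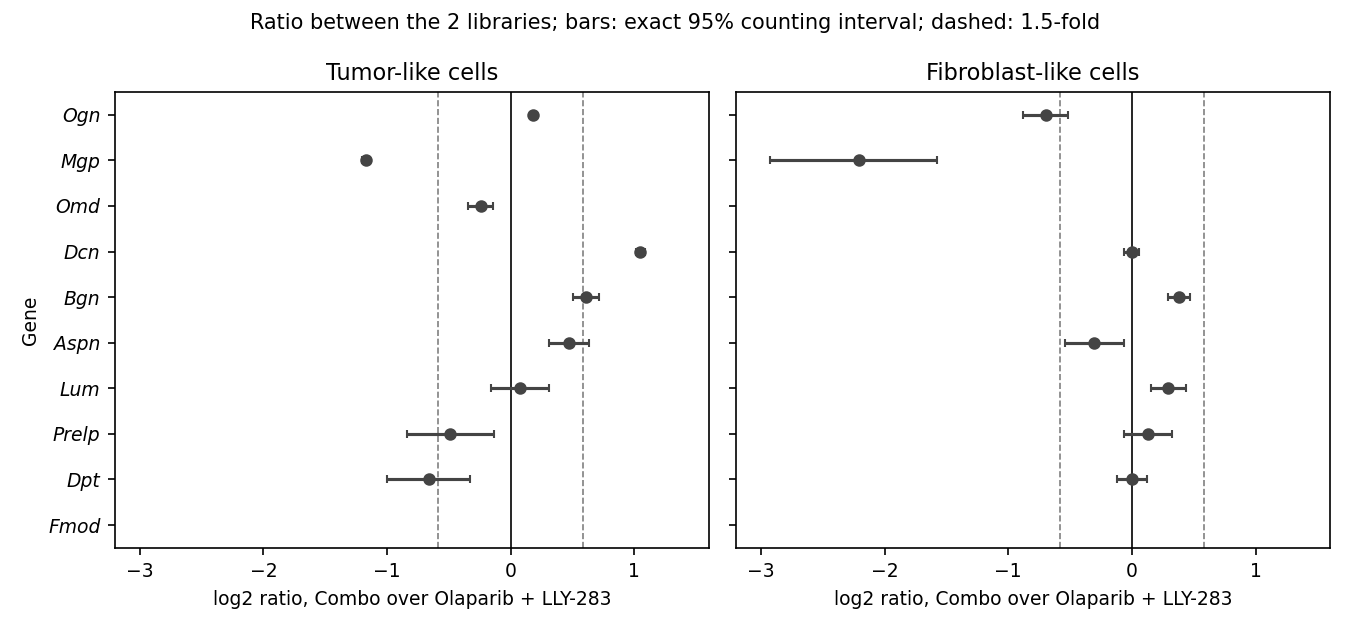
Log2 ratio of each gene's CPM, Combo over Olaparib + LLY-283, in tumor-like and fibroblast-like cells, with exact 95% counting intervals and dashed lines at 1.5-fold. Genes under 50 UMIs in sum are not drawn. In tumor-like cells Mgp lies at -1.17 and Dcn at 1.05, and in fibroblast-like cells Dcn and Dpt lie at 0.00.

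In fibroblast-like cells 6 of the 8 genes with enough UMIs differed by less than 1.5-fold between the libraries. Dcn had a log2 ratio of 0.00 [-0.06 to 0.06], Dpt of 0.00 [-0.12 to 0.12], Prelp of 0.13 [-0.06 to 0.33], Lum of 0.30 [0.16 to 0.44], Bgn of 0.38 [0.29 to 0.47] and Aspn of -0.31 [-0.54 to -0.07]. Ogn was 1.62-fold lower in Combo, at -0.70 [-0.88 to -0.52]. Mgp was 4.62-fold lower, at -2.21 [-2.92 to -1.58], from 82 and 26 UMIs at levels near the background. Of the 8 genes tested, 0 were higher and 2 lower by 1.5-fold, against 7.28% and 4.05% of 5402 genes. Omd and Fmod had too few UMIs. With doublets kept (203 and 56 fibroblast-like cells) the ratios moved to 0.43 for Dcn, 0.72 for Lum and 0.85 for Bgn, Aspn turned to 0.15 and Ogn, at -0.56, fell inside 1.5-fold, and with classes from clusters Mgp was at -0.65 and Ogn at -0.34.

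The Mgp difference depended on the depth of the cells compared. Within each library the tumor-like cells were divided into quartiles of UMI total, and Mgp was highest in the shallowest quartile of both. It went from 391 CPM in the shallowest to 183 CPM in the deepest quartile of Olaparib + LLY-283 and from 335 to 50.8 CPM in Combo. Between quartiles of the same rank the level was 1.17-fold lower in Combo in the shallowest and 3.61-fold lower in the deepest quartile. Those quartiles were not of like depth, with medians of 4741.5 and 20109 UMIs in the shallowest and 18297 and 77352 UMIs in the deepest. The deepest quartile of Olaparib + LLY-283 and the shallowest of Combo were nearer in depth and held 183 and 335 CPM, the opposite direction. Among cells of 8000 to 20000 UMIs in both libraries (4836 and 186 cells) Mgp was at 226 and 192 CPM, a 1.18-fold difference. Among those of 20000 UMIs or more (902 and 2386 cells below 200000) it was 171 and 105 CPM, a 1.63-fold difference. Median depths in that deeper range were 24916.5 and 50528.5 UMIs, so depth was not matched there. The fall with depth was not particular to Mgp. Omd fell 2.87-fold and 3.83-fold from the shallowest to the deepest quartile, Ogn 1.86-fold and 2.12-fold, Dcn 2.53-fold and 4.28-fold and Aspn 5.05-fold and 19.4-fold, while Bgn fell 1.25-fold and 1.27-fold.

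**Figure D3:**
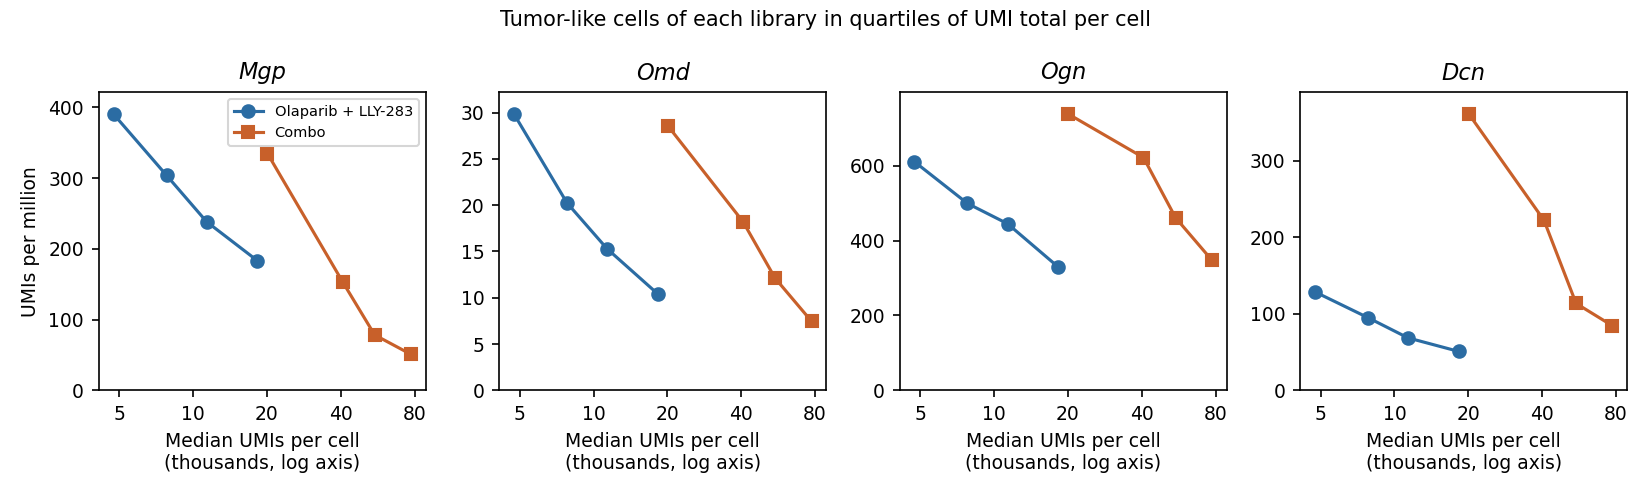
CPM of Mgp, Omd, Ogn and Dcn in quartiles of tumor-like cells ordered by UMIs per cell, against the median UMIs of the quartile (log axis), for the Olaparib + LLY-283 library (circles) and the Combo library (squares). All 4 genes go down from the shallowest to the deepest quartile in both libraries, and Dcn is higher in Combo in each quartile of the same rank.

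The direction of Dcn held at every depth compared. It was 2.81-fold higher in Combo in the shallowest quartile, 2.34-fold and 1.66-fold in the next 2 and 1.66-fold in the deepest. Among cells of 8000 to 20000 UMIs Dcn was at 63.2 and 150 CPM, and among deeper ones at 51.7 and 146 CPM. Ogn in the deeper cells was at 308 and 473 CPM, 1.54-fold higher in Combo. Omd in them was at 9.53 and 12.8 CPM, the opposite direction to that over all tumor-like cells. Depth was not matched between the libraries among these deeper cells, as given above. Aspn in the cells of 8000 to 20000 UMIs was at 3.75 and 30.7 CPM, the latter from 186 cells. Over all tumor-like cells, the 1% with most Aspn held 54.6% and 58.7% of its UMIs, so its levels rest on few cells. Between quartiles of the same rank Aspn was 2.66-fold and 1.38-fold higher in Combo in the shallower 2 and 1.70-fold and 1.44-fold lower in the deeper 2. Cells of equal UMI total need not be cells of equal RNA content in 2 libraries whose median depths differ as these do.

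Clusters of tumor-like cells, formed without the 10 genes, gave a view by like expression but not by like depth. Of 13 such clusters, 11 held at least 50 cells of each library. Most of them differed in median depth between the libraries, for example 7047 and 42358 UMIs in the cluster of 1354 and 361 cells. They also held cells without a class. Mgp was lower in Combo in 11 of 11, from 111 to 613 CPM across clusters in Olaparib + LLY-283 and from 29.3 to 233 CPM in Combo. Dcn was higher in Combo in 11 of 11, with ranges of 25.8 to 258 CPM and 53.3 to 395 CPM. Bgn was also higher in 11 of 11. Ogn was higher in 4 and lower in 7, Omd higher in 1 and lower in 10, and Aspn higher in 3 and lower in 8, against its ratio of 0.47 over all tumor-like cells. The other 2 clusters, with under 50 Combo cells, went other ways in part. The one of 320 and 49 cells held 302 and 486 CPM of Mgp, the one of 576 and 33 cells held 91.1 and 63.9 CPM of Dcn, and Bgn was lower in Combo in both, at 13.9 and 9.30 CPM and at 17.7 and 12.4 CPM. The same cluster, with 1354 and 361 cells and a Col3a1 level of 890 and 725 CPM, led among the 11 in Mgp, Omd, Ogn, Dcn and Aspn in both libraries and in Lum in Combo. In it Ogn reached 1081 and 1032 CPM and Omd 43.0 and 28.4 CPM. Clusters are not replicates of a condition.

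Summed over cells, those without a class held more of these transcripts per UMI than tumor-like cells. Ogn was at 715 and 645 CPM in them, Mgp at 435 and 303 CPM, Omd at 34.1 and 26.5 CPM and Dcn at 247 and 387 CPM. With each cell weighted equally, the order held in Olaparib + LLY-283 and turned in Combo for each of these genes. Mgp in Combo was then at 85.4 CPM in cells without a class and 138 CPM in tumor-like cells, and Ogn at 278 and 514 CPM. The 1% of Combo cells without a class that had most Mgp held 79.3% of its UMIs. Summed Col3a1 in cells without a class was 1152 and 1270 CPM, against 432 and 416 CPM in tumor-like cells. A Col3a1 limit was among the rules of the tumor-like class. With classes taken from clusters (11753 and 3340 tumor-like cells) the log2 ratios were 0.94 for Dcn and 0.11 for Ogn.

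To compare shares of cells at equal depth, each cell was thinned to 3000 UMIs by drawing without replacement, and cells with fewer were left out. This left 9078 and 2650 tumor-like cells (382 and 72 left out). A UMI of Mgp, Omd or Ogn was found in 68.8% [67.8 to 69.7] of tumor-like cells in Olaparib + LLY-283 and 63.1% [61.2 to 64.9] in Combo. Without thinning the shares were 89.8% and 95.5%, in the opposite order. Macrophage-like cells at the same depth gave 28.9% [22.6 to 35.5] and 14.4% [11.6 to 17.5] (202 and 579 cells, 548 and 39 left out), which is taken as the background, and its source was not tested. All 3 genes were found together in 2.13% and 1.49% of tumor-like cells, and exactly 1 of them in 46.7% and 49.3%.

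**Figure D4:**
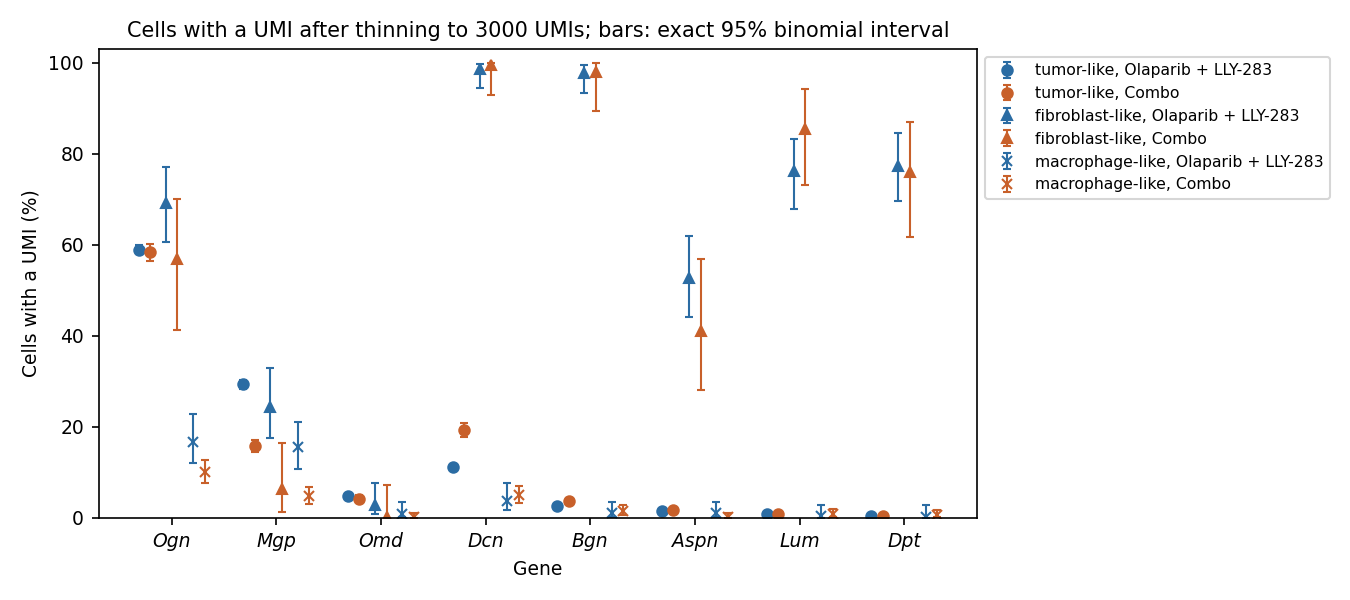
Share of cells with a UMI of each gene after thinning to 3000 UMIs, for tumor-like (circles), fibroblast-like (triangles) and macrophage-like cells (crosses) of both libraries, with exact 95% binomial intervals. Ogn was found in 59.0% and 58.3% of tumor-like cells, Mgp in 29.3% and 15.8%, and Dcn in 98.6% and 99.5% of fibroblast-like cells.

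By gene, Ogn was found in 59.0% [58.0 to 60.0] and 58.3% [56.4 to 60.2] of tumor-like cells, so its share did not differ beyond counting error. It was found in 16.6% [11.9 to 22.7] and 10.0% [7.69 to 12.8] of macrophage-like cells. Mgp was found in 29.3% [28.4 to 30.3] and 15.8% [14.4 to 17.2] of tumor-like cells, above the 15.5% [10.7 to 21.1] and 4.72% [3.10 to 6.71] of macrophage-like cells. The background of Mgp was thus also lower in Combo. Omd was found in 4.70% [4.28 to 5.16] and 4.16% [3.42 to 4.98] of tumor-like cells and in 0.750% and 0.160% of macrophage-like cells. Dcn was found in 11.1% [10.4 to 11.7] and 19.3% [17.8 to 20.8], against 3.72% [1.73 to 7.65] and 4.91% [3.24 to 6.91]. Bgn was found in 2.59% and 3.63% of tumor-like cells, against 1.15% and 1.51% of macrophage-like cells. The intervals of the 2 classes overlapped in Olaparib + LLY-283 ([2.27 to 2.94] and [0.120 to 3.53]) and barely parted in Combo ([2.94 to 4.41] and [0.713 to 2.93]). In the 70 Combo neutrophil-like cells of this depth, Bgn was found in 3.48% [0.348 to 9.94] and Dcn in 10.3% [4.12 to 19.5]. Aspn was found in 1.53% [1.28 to 1.79] and 1.82% [1.34 to 2.39] of tumor-like cells. Macrophage-like cells gave 1.09% [0.120 to 3.53] and 0.148% [0.00437 to 0.958] for Aspn, so the intervals overlapped in Olaparib + LLY-283 only. Lum, Prelp and Dpt were found in 0.307% to 0.808% of tumor-like cells, within the intervals of macrophage-like cells.

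Among fibroblast-like cells at 3000 UMIs (130 and 50 cells) Dcn was found in 98.6% [94.6 to 99.8] and 99.5% [92.9 to 100], and Bgn in 97.8% [93.4 to 99.5] and 98.0% [89.4 to 99.9]. Dpt, Lum and Prelp were found in 77.3%, 76.1% and 68.4% in Olaparib + LLY-283 and in 75.9%, 85.6% and 63.8% in Combo. Aspn was found in 52.7% [44.1 to 61.9] and 41.2% [28.2 to 56.8]. Ogn was found in 69.1% [60.5 to 77.0] and 57.0% [41.3 to 70.0], intervals that overlap those of tumor-like cells in Combo.

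Mgp and Dcn were spread more unequally over tumor-like cells than Ogn. The 1% of tumor-like cells with most Mgp held 27.4% and 31.4% of its UMIs, and for Dcn that share was 31.6% and 22.6%, while for Ogn it was 6.93% and 7.37%. The highest single cell had 385 and 845 Mgp UMIs, against 67 and 301 of Ogn. At 3000 UMIs the variance of Mgp over its mean was 11.7 and 12.9, where counts that vary by sampling alone give a value of 1, and for Dcn it was 5.39 and 6.79. For Ogn it was 2.83 and 3.70 and for Omd 1.39 and 1.28. At least 5 Mgp UMIs were found in 3.97% and 1.93% of tumor-like cells and at least 5 Ogn UMIs in 6.74% and 8.68%.

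Pairs of genes were then counted in the same tumor-like cells at 3000 UMIs and set against the number expected from the 2 shares. Of 45 pairs, 14 had at least 5 expected cells in both libraries. All 14 were found together more often than expected in both, by 1.01-fold to 4.76-fold in Olaparib + LLY-283 and 1.09-fold to 4.00-fold in Combo, and for 10 the counting interval lay above 1 in both libraries. The exceptions were Mgp with Bgn, and Ogn with Bgn, Lum and Prelp. Co-detection was among the values that chose the list, and pairs of other genes were not counted. Nothing is therefore read from these counts of pairs. In Olaparib + LLY-283 alone, 21 pairs had at least 5 expected cells. Among these, Mgp with Dpt was below 1, at 0.843 [0.405 to 1.55], and so was Ogn with Dpt, at 0.979 [0.612 to 1.45]. Cells differ in state and quality as well as in these genes, and the part of either was not tested.

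**Figure D5:**
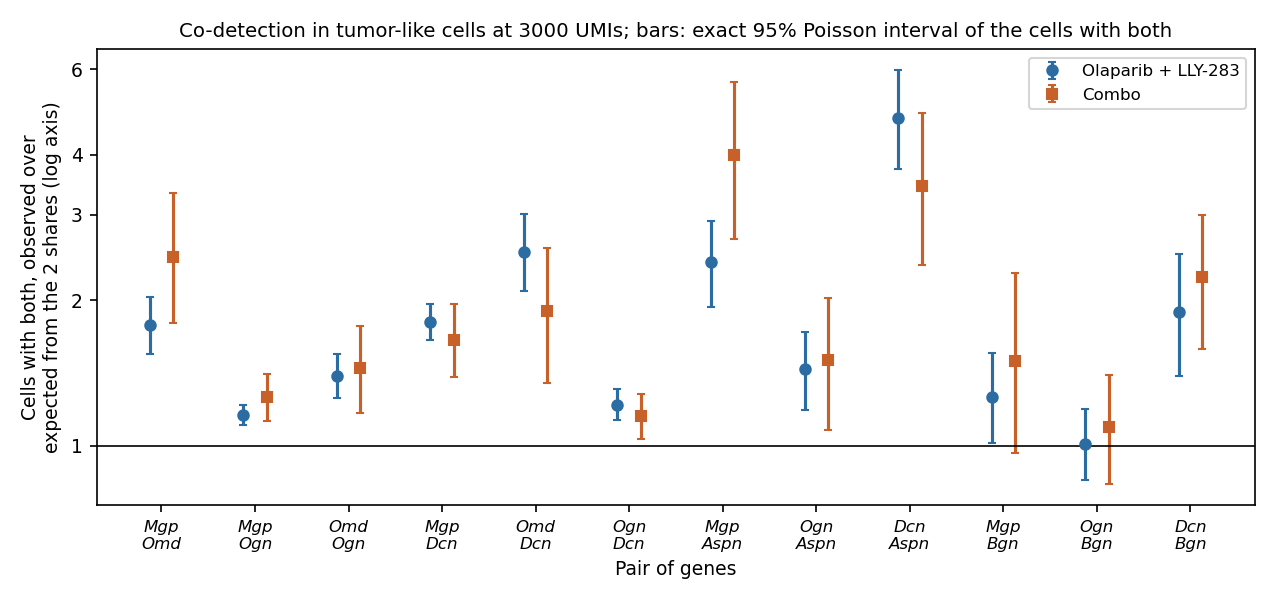
Cells with a UMI of both genes of a pair over the number expected from their 2 shares, in tumor-like cells at 3000 UMIs, for Olaparib + LLY-283 (circles) and Combo (squares), on a log axis with exact 95% Poisson intervals. Dcn with Aspn lies at 4.76 and 3.45 and Ogn with Bgn at 1.01 and 1.09, on the line of no excess.

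Omd was found with Ogn, its neighbour on the chromosome, 1.39-fold [1.25 to 1.55] and 1.45-fold [1.17 to 1.77] as often as the 2 shares would give. Of the Omd cells 82.2% and 84.4% had an Ogn UMI, against 57.8% and 57.2% of cells without Omd. Omd with Mgp, which lies on another chromosome, was found 1.78-fold [1.55 to 2.02] and 2.46-fold [1.79 to 3.34] as often. Mgp was found in 52.1% and 38.7% of Omd cells against 28.2% and 14.8% of the others. Omd with Dcn was at 2.51-fold [2.09 to 3.01] and 1.90-fold [1.35 to 2.56]. For a gene as widely found as Ogn the largest possible excess is small, so ratios of pairs with Ogn cannot be set against those of rarer genes.

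Dcn with Aspn was found together 4.76-fold [3.73 to 5.98] and 3.45-fold [2.36 to 4.87] as often as the 2 shares would give. Of the Aspn cells 52.7% and 66.5% had Dcn, against 10.4% and 18.4% of the rest. Mgp with Aspn was at 2.40-fold [1.94 to 2.92] and 4.00-fold [2.67 to 5.65], and Mgp with Dcn at 1.81-fold [1.65 to 1.96] and 1.65-fold [1.38 to 1.96]. Dcn with Bgn, neighbours in the family, was at 1.89-fold [1.39 to 2.49] and 2.23-fold [1.59 to 3.00].

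The genes whose UMIs went most closely with each gene across tumor-like cells were sought by Pearson's r of log(1 + UMIs) at 3000 UMIs, taking the lower of the 2 libraries over 8388 candidate genes found in at least 2% of cells. These correlations are descriptions over the 9078 and 2650 cells of 2 libraries. Cst3, which encodes the protease inhibitor cystatin C, came first for Mgp (r = 0.29 and 0.29), Omd (0.18 and 0.17), Ogn (0.34 and 0.40), Dcn (0.28 and 0.29) and Aspn (0.18 and 0.21). Col3a1 was among the first 5 for each of the 6 genes examined, with r of 0.33 and 0.40 for Ogn and 0.22 and 0.22 for Mgp, and Col3a1 also served in the class limits. Spp1, which encodes osteopontin, came second for Mgp (0.31 and 0.27), Dcn (0.25 and 0.30) and Aspn (0.14 and 0.20). Ank, a pyrophosphate transport gene known to limit mineral deposition, was the fifth for Mgp (0.21 and 0.27). Col1a2 was the third for Ogn (0.28 and 0.36). For Bgn the highest values were low, 0.06 and 0.11 with Col3a1. Among the genes themselves Mgp with Dcn had r of 0.30 and 0.30, Mgp with Ogn 0.22 and 0.23, and Omd with Ogn 0.21 and 0.26.

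Further genes of the family were mostly scarce. Of 10 other small leucine-rich proteoglycan genes, 6 had enough UMIs in tumor-like cells. In Combo 0 of these were higher and 1 lower by 1.5-fold, against 6.05% and 3.15% of all genes. The lower gene was Chadl, at 0.343 and 0.210 CPM. Counts this small are given as descriptions only, here and in the lists below. Podnl1, podocan-like protein 1, was by far the highest, at 95.5 and 84.5 CPM in tumor-like cells against 25.1 and 11.3 CPM in fibroblast-like cells. Podn, podocan, was instead found in fibroblast-like cells, at 50.1 and 66.8 CPM against 0.352 and 0.345 CPM. Tsku was at 3.46 and 2.92 CPM in tumor-like and 32.2 and 35.4 CPM in fibroblast-like cells. Ecm2, the next gene on chromosome 13 beside Aspn, was at 1.17 and 1.24 CPM in tumor-like and 16.7 and 12.9 CPM in fibroblast-like cells. Kera, Epyc, Chad and Nyx had at most 2 UMIs in either class of a library.

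Genes that build the sugar chains were found in both classes. Of 18, 17 had enough UMIs in tumor-like cells, with a median log2 ratio of 0.10 beside 0.06 for all genes. In Combo 1 was higher and 0 lower by 1.5-fold, against 6.05% and 3.15% of all genes. The 1 gene, named after its value was seen, was Csgalnact1, which starts chondroitin sulfate chains, at 6.70 and 14.7 CPM. Dse, the epimerase that makes dermatan sulfate, was the highest of the list at 48.1 and 50.0 CPM. B3gat3, Chst2, Chst11 and Chsy1 were each between 19.0 and 33.5 CPM. In fibroblast-like cells 10 of the 18 had enough UMIs, and 0 were higher or lower by 1.5-fold, against 7.28% and 4.05% of all genes. Dsel, the second epimerase, was at 105 and 136 CPM there, against 5.08 and 6.64 CPM in tumor-like cells.

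The 3 genes of gamma-carboxylation, the vitamin K-dependent step that activates Mgp protein, were found in tumor-like cells with none past 1.5-fold. Of all genes 6.05% were higher and 3.15% lower in Combo by that much. Vkorc1l1 was at 25.9 and 23.9 CPM, Vkorc1 at 20.8 and 22.0 CPM and Ggcx, the carboxylase, at 7.03 and 8.87 CPM. In fibroblast-like cells Vkorc1 was at 159 and 170 CPM.

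Collagen and fibril genes, the partners that these proteins bind, were mostly within 1.5-fold between the libraries in tumor-like cells, as were most genes. Of 10, 0 were higher and 1 lower by 1.5-fold, against 6.05% and 3.15% of all genes. The lower gene was Tnxb, at 1.90 and 1.22 CPM. Col1a2 was at 1554 and 1515 CPM, Col1a1 at 354 and 398 CPM, Col6a1 at 197 and 191 CPM and Col12a1 at 198 and 161 CPM. Col3a1 and Col5a2 took part in the class limits. In fibroblast-like cells 2 of the 10 were higher in Combo and 0 lower, against 7.28% and 4.05% of all genes. The 2 were Col6a1 (584 and 960 CPM) and Col12a1 (629 and 973 CPM). Col1a1 was at 10246 and 13541 CPM there and Lox, the collagen cross-linking enzyme, at 1084 and 1042 CPM.

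Growth factors and receptors known to bind decorin, biglycan or Mgp were scarce to moderate. Of 9, 8 had enough UMIs in tumor-like cells. In Combo 1 of these was higher by 1.5-fold and 0 lower, against 6.05% and 3.15% of all genes. The higher gene was Tlr4, at 1.65 and 2.66 CPM. Bmp4, a ligand of the kind that Mgp binds, was at 83.0 and 67.4 CPM, Met at 72.2 and 89.8 CPM, Tgfb1 at 45.9 and 36.1 CPM, Tgfb2 at 23.8 and 21.6 CPM and Tgfb3 at 14.2 and 13.0 CPM. In fibroblast-like cells 3 of the 9 had enough UMIs and 0 were past 1.5-fold, against 7.28% higher and 4.05% lower of all genes.

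Because Omd and Mgp are known from bone and cartilage, 12 genes of those tissues were examined. Only 6 had enough UMIs in tumor-like cells. In Combo 1 of these was higher by 1.5-fold and 0 lower, against 6.05% and 3.15% of all genes. The higher gene was Bglap, at 0.562 and 2.12 CPM. Spp1 was at 3277 and 3206 CPM, Sox9 at 63.6 and 71.3 CPM, Runx2 at 33.4 and 33.6 CPM and Phex at 2.82 and 3.67 CPM. The osteoblast transcription factor gene Sp7 and the cartilage gene Acan had 0 UMIs in tumor-like and fibroblast-like cells of both libraries, and Alpl, Ibsp and Col2a1 had under 10 UMIs in each.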

How the data were processed

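The authors deposited, for each of the 2 libraries, a matrix of UMI counts per gene and cell with no normalization. The submitters' notes name bcl2fastq 5.0.1, Cell Ranger, Seurat 4.1.0 and build mm10, and the matrix headers name Cell Ranger 6.1.2. Cells were kept from 200 genes upward and below 20% of UMIs from mitochondrial genes. The automatic limit of Scrublet (scanpy 1.11.5) called 0 doublets, so the cells with the highest scores were removed up to the number expected at 0.8% per 1000 cells, 2055 and 284 cells. Cells were classed by marker UMIs per 10000 UMIs, and clusters (Leiden, resolution 1.3, 2000 variable genes, 30 components) were made without the 10 genes. Levels are summed counts per 1000000 UMIs (CPM) with exact Poisson 95% intervals, ratios used 0.5 added UMIs and genes of at least 50 UMIs, and shares used 200 draws of 3000 UMIs per cell and exact Clopper-Pearson intervals. With 1 library per group no test was possible. In simulated data 2-fold changes passed the 1.5-fold limit for 99.0% of raised genes in tumor-like and 93.0% in fibroblast-like cells, and unchanged genes passed it for 1.09% and 5.12% by counting alone. The 10 genes and the gene lists were chosen with earlier results of these data known. Within each list up to 5 genes were named by summed CPM in the class described, and genes past the limit were named after their values were seen. Alternatives of the cell filters, doublet removal, class rules, weighting of cells, centring and thinning depth were run.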

Additional observations from a re-analysis of the deposited data

Results flagged for a closer look

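Ogn and Aspn went opposite ways between the libraries in the 2 classes, which marked them for a closer look. Ogn had a log2 ratio, Combo over Olaparib + LLY-283, of 0.18 in tumor-like cells and -0.70 in fibroblast-like cells. Aspn had 0.47 in tumor-like cells and -0.31 in fibroblast-like cells. For each of these 4 values the counting interval excluded 0. The opposite directions of Aspn did not hold with doublets kept, where its ratio in fibroblast-like cells was 0.15, and Aspn was lower in Combo in 8 of 11 tumor-like clusters. Ogn was lower in Combo in 7 of those 11. The difference between the classes was not tested, since each group was 1 library.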

How the results depend on the processing

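No paired analysis was possible because each group was 1 library. Over 9 settings in tumor-like cells the log2 ratio of Dcn was at least 0.94 and that of Mgp between -1.26 and -0.23, and the directions of Ogn, Bgn and Aspn also held in each, while those of Omd, Lum, Prelp and Dpt turned in at least 1. The count of genes at least 4-fold higher in fibroblast-like cells was 6 under each alternative run for it. In fibroblast-like cells, doublets kept gave 2 genes higher and 1 lower and turned Aspn from -0.31 to 0.15, and classes from clusters gave 1 past 1.5-fold in all, 1 lower. Centring on the median gene left 1 higher in tumor-like cells. The ranges of UMI total per cell were chosen after seeing the data. Among tumor-like cells of 8000 to 20000 UMIs, 0 genes were lower in Combo by 1.5-fold and Dpt turned to 0.14, which rests on few UMIs in Combo. Aspn moved to 3.04 among them, and over all tumor-like cells most Aspn UMIs were in 1% of the cells. With classes from clusters the share with Mgp, Omd or Ogn in Olaparib + LLY-283 was 70.3%. The shares (Olaparib + LLY-283, Combo) were 40.6% and 36.4% at 1000 UMIs, 89.0% and 84.3% at 8000 UMIs, and 89.8% and 95.5% with no thinning, so among these depths the order of the libraries turned only without thinning. Observed over expected co-detection at 1000 UMIs was 2.32 for Mgp and Omd in Olaparib + LLY-283, 1.38 and 1.57 for Mgp and Ogn, and 1.86 and 1.96 for Omd and Ogn. At 8000 UMIs it was 1.41 for Mgp and Omd and 1.14 for Omd and Ogn in Olaparib + LLY-283, and 1.04 and 1.09 for Mgp and Ogn. Each stayed above 1. The cause of these shifts was not tested. Depth limits the fibroblast-like values of Omd, Fmod and Mgp in Combo (1, 0 and 26 UMIs).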
